A study of Homo sapiens with 12 samples.

Results

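The 7 genes described here are HCN4, HCN2, SHOX2, TBX3, ISL1, CACNA1G and CACNA1D, a set of pacemaker channels and sinus node regulators taken by gene symbol from a table of 61806 genes. They were measured by bulk RNA-seq in cells differentiated from H1, an established line of human embryonic stem cells with the wild-type (WT) genotype. All groups came from mesendoderm progenitors that had been induced with a WNT activator. NP-IWP2 cells were not passaged and received IWP2, an inhibitor of WNT secretion that drives cardiac differentiation. P-DF cells (labelled Pass-ctrl) underwent a passage on Day 2 and then differentiated without an inducer, while P-IWP2 cells had the same passage followed by IWP2. Each treatment was collected on Day 12 and Day 16 with 2 libraries, 12 libraries in 6 groups. Static cells are the NP-IWP2 groups, and no static group without IWP2 was included. P-DF and NP-IWP2 thus differ in the passage and in IWP2, which cannot be told apart in their comparisons. This holds also for the interaction of passaging and day in P-DF. P-IWP2 and NP-IWP2 both received IWP2. All libraries came from 1 cell line, and nothing in the labels says that the 2 libraries of a group were separate differentiations, so the p-values measure the spread between these libraries only.

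The heartbeat starts in the sinus node, whose cells depolarise by themselves between beats. HCN channels carry the hyperpolarisation-activated current, the T-type channel encoded by CACNA1G and the L-type channel encoded by CACNA1D open at rather negative voltages, and calcium cycling of the sarcoplasmic reticulum (the calcium clock) adds to the depolarisation. ISL1, SHOX2, TBX18 and TBX3 build and keep the sinus node programme and hold back genes of the working myocardium such as NKX2-5 targets. Young cardiomyocytes made from pluripotent stem cells beat by themselves, and HCN4 is known to fall in working cardiomyocytes as they mature.

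HCN4 and ISL1 are shown with their promoters because HCN4 had the highest level of the set in every library and ISL1 is a regulator with a higher level in static libraries than in passaged ones other than replicate 5 of Day 12 P-IWP2. The 250 bases before the RefSeq start site (GRCh38.p14) are given 5′ to 3′ on the strand of the gene, HCN4 from chr15:73368959-73369208 on the minus strand and ISL1 from chr5:51383198-51383447 on the plus strand, with capitals for matches to the motifs searched.
HCN4: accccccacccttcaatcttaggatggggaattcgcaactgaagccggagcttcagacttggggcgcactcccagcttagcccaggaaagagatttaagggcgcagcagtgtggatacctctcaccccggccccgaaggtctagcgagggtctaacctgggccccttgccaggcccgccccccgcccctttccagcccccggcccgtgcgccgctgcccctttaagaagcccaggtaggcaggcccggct
ISL1: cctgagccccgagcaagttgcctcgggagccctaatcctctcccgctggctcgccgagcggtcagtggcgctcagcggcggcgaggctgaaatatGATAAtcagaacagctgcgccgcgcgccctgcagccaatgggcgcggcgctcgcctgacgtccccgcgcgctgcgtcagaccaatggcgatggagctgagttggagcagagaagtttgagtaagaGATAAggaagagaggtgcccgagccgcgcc
GATAA, the core bound by GATA factors, was matched 2 times in the ISL1 window and in no other window of the 5 members that had one (HCN4, HCN2, SHOX2, ISL1 and CACNA1D), and 20.4% of all 35116 windows of this length held it on either strand. TCAAAG, the core bound by TCF/LEF factors, was matched in the SHOX2 window, against 11.2% of all windows. The T-box core AGGTGT (9.57% of all windows) and the homeodomain core TAATTA (4.35%) were matched in none of the 5. In the ISL1 window, 135 bases are also exons of ISL1-DT, a transcript of the opposite strand. All 250 bases of the SHOX2 window are exons of SHOX2 itself on the same strand. The CACNA1D window (chr3:53494361-53494610) lies inside the CACNA1D gene, so neither of these windows is upstream of its whole gene. The motifs do not overlap in these windows, and a match describes the letters only.

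The genes lie on 6 chromosomes of GRCh38. HCN4 is at chr15:73319859-73368958 (minus strand), HCN2 at chr19:589881-617159 (plus), SHOX2 at chr3:158095905-158106420 (minus), TBX3 at chr12:114670255-114684175 (minus), ISL1 at chr5:51383448-51394730 (plus), CACNA1G at chr17:50560715-50627474 (plus) and CACNA1D at chr3:53328963-53813733 (plus). Values are per gene and count reads over its exons. The strand setting of the counting was not given in the sources used here, and exons of the opposite strand overlap CACNA1D over 1399 bases (CHDH), TBX3 over 196 (TBX3-AS1), SHOX2 over 156 (RSRC1), and CACNA1G over 309 and HCN2 over 148 (unnamed transcripts), so reads from these stretches cannot be assigned with certainty.

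Library totals were between 14885589 and 19176239 counts, and all 7 genes passed the filter on low counts, which SHOX2 did through the libraries where it is high. The Day 12 P-IWP2 library of replicate 5 stood apart. Its Spearman correlation with replicate 6 was 0.854, where the replicates of the other 5 groups correlated at 0.975 to 0.987, and its closest library was a Day 12 NP-IWP2 library (0.919). It had a total of 15634044 counts. The label of this library was kept, and whether the label is right cannot be told from the files. In a model of all 12 libraries it widened the spread, so each test is given with all libraries and again without replicate 5. Leaving it out was chosen from these same data, so the smaller p-values without it may be too small. Day 12 P-IWP2 then holds 1 library, whose spread is assumed to be like that of the other groups. Markers of the cardiomyocyte were abundant in all libraries (summed FPKM of 8 genes, 2377 in replicate 5 and 3203 to 9470 in the others). FPKM are counts per kilobase of exon, scaled by the library total, and put different genes on 1 scale where reads are fragments of transcripts. The protocol in the labels names a SMRTbell kit, which is made for long reads, whereas the processing notes name tools for short reads. With long reads the division by length would not hold, and FPKM of different genes, family shares included, could not be compared, which leaves comparisons of 1 gene between libraries as they are. HCN4 was the highest of the 7 genes in all 12 libraries in counts not divided by length as well.

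Several genes of the pacemaker programme had their highest level in the library of replicate 5, as did many other genes. HCN4 (117 FPKM), SHOX2 (40.6), ISL1 (35.9) and CACNA1D (9.69) were higher there than in any of the other 11 libraries. These are 4 of 7, where 31.8% of all 19505 genes tested were above all other libraries there and 9.53% below. CACNA1G (5.16), HCN2 (0.34) and TBX3 (4.56) lay within the range of the 11, although among the 6 Day 12 libraries CACNA1G was the highest and HCN2 and TBX3 were the lowest. In the Day 16 P-IWP2 library of replicate 6, 27.3% of genes were below all other libraries, CACNA1G and CACNA1D among them. Of 18 other sinus node factors and markers, 9 were above all other libraries, among them TBX18 (106 FPKM against at most 44.8), TBX5 (64.2 against at most 32.3) and the acetylcholine-gated potassium channel gene KCNJ3, while KCNJ5, POPDC2 and BVES were below. Of 13 working myocardium genes, none was above and 6 were below, with IRX4, a ventricular factor, at 0.04 FPKM (20.2 or more elsewhere) and NKX2-5 at 55.3 FPKM (88.7 or more elsewhere). Of 8 cardiomyocyte genes, 6 were below all other libraries. Its summed fibroblast markers (767 FPKM) were near those of the static libraries of Day 12 (801 and 813). COL3A1 (457), COL1A1 (176) and COL1A2 (82.5) made up most of that sum. PDGFRA (37.7) was above all other libraries, while LUM (0.55, up to 183 elsewhere) and DCN (0.26, up to 10.5) were low. Its summed epicardial markers (35.8 FPKM) were above static libraries of Day 12 (18.1 and 22.4) and below those of Day 16 (41.3 and 54.9). Its summed hepatic markers (8.29 FPKM) were at the level of passaged cells. Its summed 8 neural markers (16.7 FPKM) were above both static (8.27 and 8.35) and other passaged libraries (2.65 to 2.75) of Day 12, and its summed 7 endothelial markers (12.3 FPKM) lay between those of static (27.9 and 30.8) and other passaged libraries (2.22 to 3.38). What set this library apart was not tested.

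**Figure D1:**
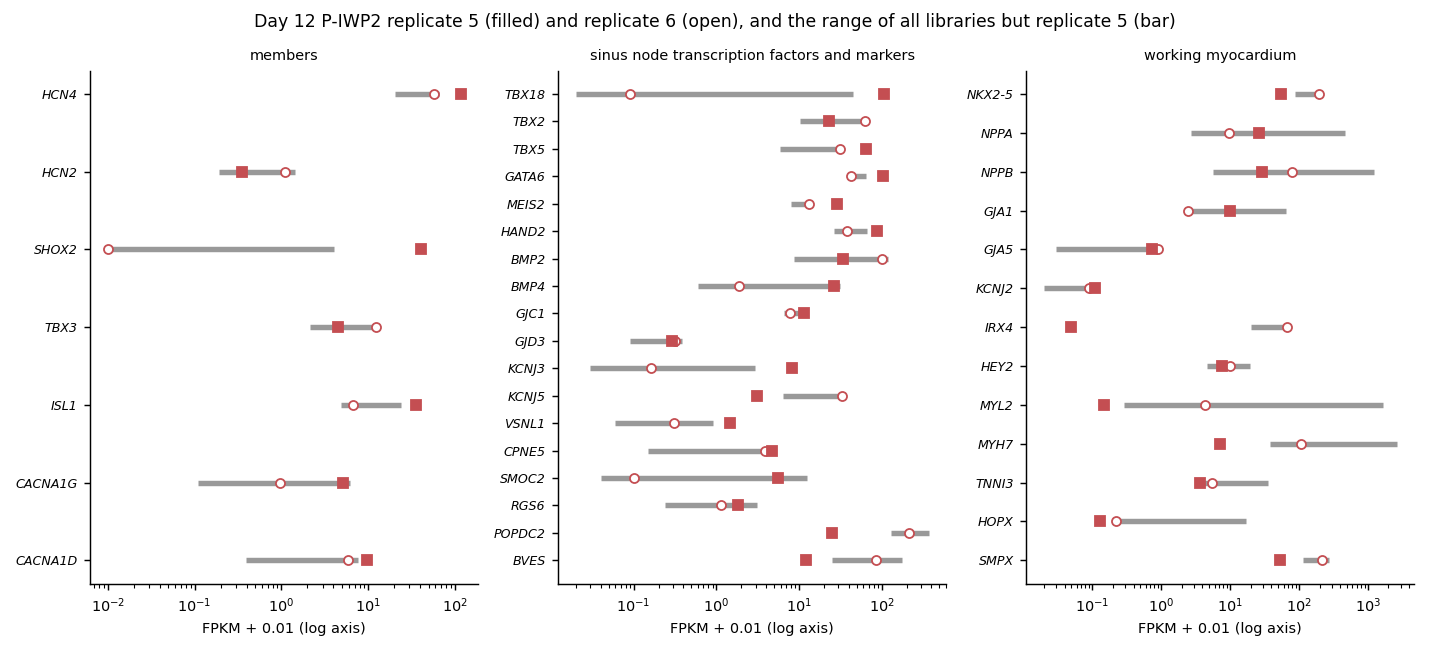
FPKM (plus 0.01, log axis) of the 7 genes, of 18 sinus node factors and markers and of 13 working myocardium genes, with the Day 12 P-IWP2 library of replicate 5 as filled squares, replicate 6 as open circles and the range of the 11 libraries other than replicate 5 as grey bars. HCN4, SHOX2, ISL1 and CACNA1D of replicate 5 lie right of the bars, and IRX4, MYL2, MYH7 and NKX2-5 lie left of them.

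SHOX2, a homeobox factor that keeps the working myocardial programme out of the sinus node, was found in static cells and was at or near 0 in passaged cells other than replicate 5. On Day 12, NP-IWP2 libraries had 0.5 and 1.02 FPKM (45 and 84 counts), both P-DF libraries had no count, and P-IWP2 libraries had 40.6 FPKM (3183 counts) and 0. On Day 16, NP-IWP2 libraries had 2.34 and 4.06 FPKM (224 and 327 counts), and P-DF and P-IWP2 libraries each had 0.02 FPKM (2 counts) and 0. The static groups thus lay above P-DF on either day, the ranges of the Day 12 P-IWP2 and NP-IWP2 libraries overlapped, and the passaged groups of Day 16 could not be told apart at this depth. Taking 3 counts over the group as the most that 0 counts leave room for, the Day 12 level was at least 38.7-fold higher in NP-IWP2 than in P-DF (129 against 0 counts). On Day 16 the ratio of NP-IWP2 to P-DF was 267 (exact 95% interval 73.7 to 2213, counting error only), and that of NP-IWP2 to P-IWP2 was 292 (80.4 to 2417). The adjusted p with all libraries (edgeR) was 0.31, 0.117 and 0.107 for these 3 differences. SHOX2 passed the filter only through the libraries where it is high. Its fold against groups at or near 0 counts is not defined by the fit, so no conclusion is drawn from these tests. In static cells SHOX2 was 2.17 ± 1.74 (log2, SE) higher on Day 16 than on Day 12 (adjusted p 0.535), and without replicate 5 the same difference had an SE of 0.38 and an adjusted p of 0.00249. The fall from Day 12 to Day 16 in P-IWP2 (adjusted p 0.0346) rested on replicate 5, without which 0 counts stood against 2, and its call was also lost without the Day 16 library of replicate 5 (0.129) or 6 (0.196).

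ISL1, a LIM homeobox factor of second heart field and sinus node progenitors, had a higher level in static libraries than in passaged ones other than replicate 5. On Day 12 the level was 22.0 and 23.9 FPKM in NP-IWP2, 5.94 and 6.85 in P-DF, and 35.9 and 6.70 in P-IWP2. On Day 16 it was 12.8 and 17.1 FPKM in NP-IWP2, 5.60 and 5.04 in P-DF, and 4.85 and 4.89 in P-IWP2. Every static library was above every passaged library of its day except replicate 5, which was the highest of all 12. The log2 difference of P-DF from NP-IWP2 was -1.76 ± 0.52 (SE) on Day 12 (adjusted p 0.0944) and -1.25 ± 0.52 on Day 16 (0.133), differences that had adjusted p of 7.73e-07 and 1.11e-05 without replicate 5. That of P-IWP2 from NP-IWP2 was -1.33 ± 0.52 on Day 16 (adjusted p 0.107, and 6.75e-06 without replicate 5). On Day 12 the difference between P-IWP2 and NP-IWP2 depended on the library, at -0.20 ± 0.50 with both (adjusted p 0.953), -1.69 ± 0.17 without replicate 5 (2.11e-05) and 0.50 ± 0.14 without replicate 6 (0.0329). From Day 12 to Day 16 ISL1 differed by -0.51 ± 0.50 in static cells (adjusted p 0.612, and 0.0144 without replicate 5) and by -0.01 ± 0.52 in P-DF (1, and 0.989 without replicate 5). In P-IWP2 it fell by 1.65 ± 0.52 with all libraries (adjusted p 0.0446), which became -0.16 ± 0.17 without replicate 5 (0.544). That call was lost as well without the Day 16 library of replicate 5 (0.152) or 6 (0.182).

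TBX3, a T-box repressor of the working myocardial programme in the conduction system, had lower levels on Day 16 than on Day 12 in all 3 treatments. With all libraries the fall passed the test in the passaged groups only, and the 3 treatments had close levels on Day 16. On Day 12 it was at 10.5 and 8.58 FPKM in NP-IWP2, 13.0 and 11.9 in P-DF, and 4.56 and 12.5 in P-IWP2. On Day 16 it was at 2.18 and 2.42 FPKM in NP-IWP2, 2.33 and 2.16 in P-DF, and 2.36 and 2.41 in P-IWP2. All Day 16 libraries lay below all Day 12 libraries, and on Day 16 each passaged group overlapped the static one. From Day 12 to Day 16 TBX3 of P-DF cells fell by 2.21 ± 0.42 (adjusted p 0.0113) and that of P-IWP2 cells fell by 1.48 ± 0.41 (0.0294), and in static cells the difference was -1.94 ± 0.42 (0.0523). Without replicate 5 these differences were -2.21 ± 0.13, -2.09 ± 0.15 and -1.94 ± 0.13, with adjusted p of 2.44e-07, 1.8e-06 and 2.63e-06. The P-DF call was lost without any 1 of its 4 libraries (0.0519 to 0.11), and the P-IWP2 call without replicate 6 of Day 12 (0.0595) or replicate 5 (0.118) or 6 (0.135) of Day 16. On Day 12, without replicate 5, TBX3 was 0.47 ± 0.12 higher in P-DF than in static cells (adjusted p 0.0129). It was 0.48 higher in the 1 P-IWP2 library left. With all libraries the values were 0.48 ± 0.40 (adjusted p 0.515) and -0.12 ± 0.40 (0.966). Without replicate 6, which leaves replicate 5 alone, the P-IWP2 value was -1.21. The interaction of passaging and day, the difference on Day 16 minus that on Day 12, was -0.28 ± 0.58 for P-DF (adjusted p 0.894) and 0.46 ± 0.58 for P-IWP2 (0.688).

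HCN4, the main HCN channel gene of the sinus node and of the embryonic heart tube, was the highest of the 7 genes in all libraries and fell with time in passaged cells. On Day 12 it was at 56.8 and 65.2 FPKM in NP-IWP2, 65.0 and 51.2 in P-DF, and 117 and 58.2 in P-IWP2. The Day 16 levels were 43.1 and 46.0 FPKM in NP-IWP2, 26.3 and 23.6 in P-DF, and 20.3 and 21.5 in P-IWP2. The treatments overlapped on Day 12, and on Day 16 they stood apart in the order NP-IWP2, P-DF, P-IWP2. On Day 16 HCN4 was lower in P-IWP2 than in NP-IWP2, by a log2 difference of -0.81 ± 0.24 (adjusted p 0.0461, and 0.00045 without replicate 5). The P-DF difference was -0.60 ± 0.24 (adjusted p 0.117, and 0.00363 without replicate 5). From Day 12 to Day 16 HCN4 of P-DF cells fell by 0.96 ± 0.24 (adjusted p 0.0304). That of P-IWP2 cells fell by 1.62 ± 0.24 (0.00295), or by 1.17 ± 0.16 without replicate 5 (0.000207). In static cells the difference was -0.34 ± 0.24 (adjusted p 0.466, and 0.0987 without replicate 5). The P-IWP2 call of Day 16 was lost without any 1 of the 4 libraries compared (0.136 to 0.181), as was the P-DF call over time (0.0785 to 0.195). The interaction of passaging and day for P-IWP2 and NP-IWP2 was -1.28 ± 0.34 (adjusted p 0.0833). Without replicate 5, which leaves 1 library in the Day 12 P-IWP2 group, it was -0.83.

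HCN2, an HCN channel gene also found in ventricle and brain, was low throughout and was higher on Day 16 in P-DF than in static cells. On Day 12 it was at 0.98 and 1.04 FPKM in NP-IWP2, 1.26 and 1.43 in P-DF, and 0.34 and 1.10 in P-IWP2. On Day 16 it was at 0.46 and 0.18 FPKM in NP-IWP2, 1.33 and 1.43 in P-DF, and 1.28 and 0.78 in P-IWP2. The Day 16 static libraries lay below all passaged libraries of that day. On that day HCN2 of P-DF exceeded HCN2 of static cells by 2.29 ± 0.60 (adjusted p 0.0329, and 0.00033 without replicate 5). The P-IWP2 difference was 1.9 ± 0.60 (0.0579), and without replicate 5 it passed the test (0.00144). The P-DF call was lost without any 1 of its 4 libraries (0.0551 to 0.205), and without the static library of replicate 2 the difference was 1.75. In static cells the difference between Day 16 and Day 12 was -1.50 ± 0.60 (adjusted p 0.211), and without replicate 5 it was -1.49 ± 0.37 and passed the test (0.0167).

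**Figure D2:**
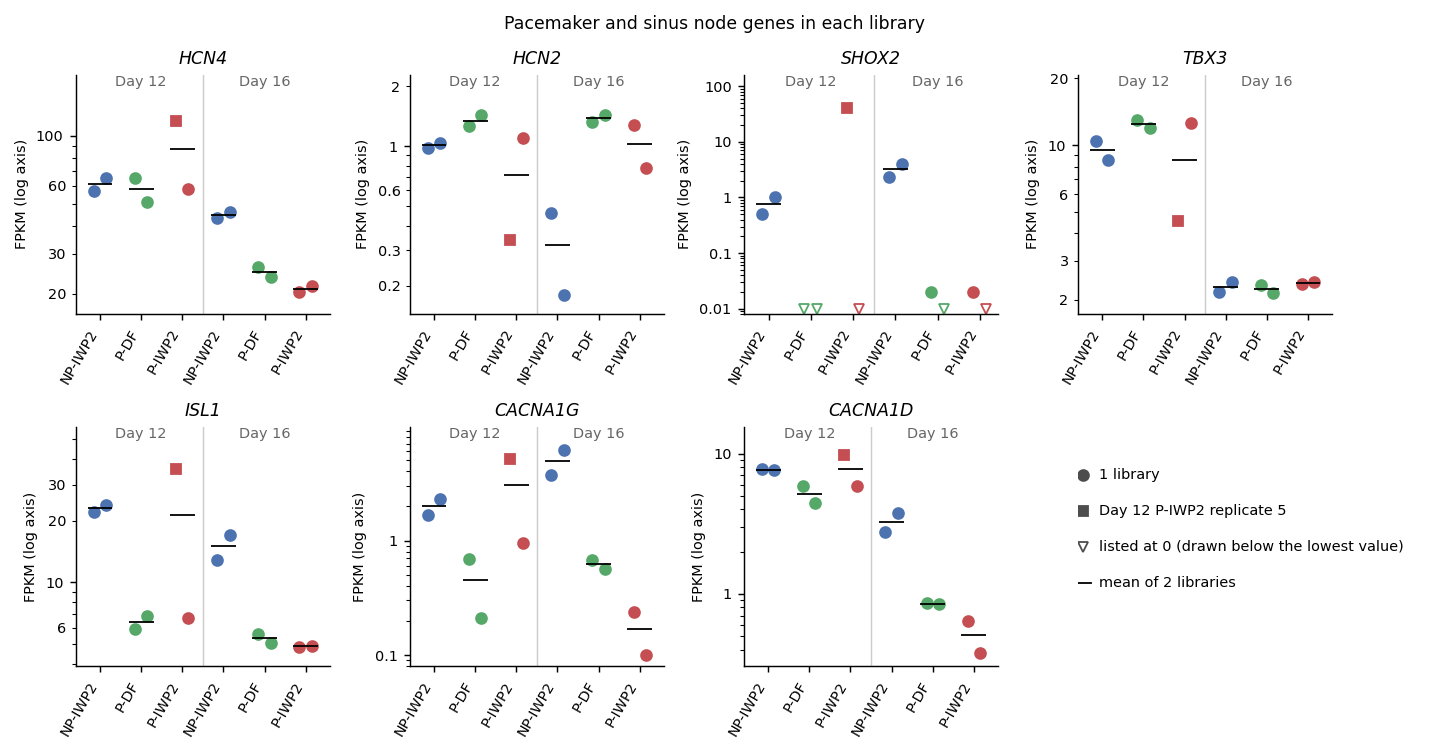
FPKM (log axis) of each of the 7 genes in the 12 libraries, by treatment on Day 12 and Day 16, with a bar at the mean of the 2 libraries where neither is 0, a square for Day 12 P-IWP2 replicate 5 and open triangles for libraries listed at 0. CACNA1D, HCN4 and TBX3 sit lower on Day 16, and SHOX2, ISL1 and CACNA1G sit higher in NP-IWP2 than in the passaged cells other than replicate 5.

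CACNA1G, which encodes the Cav3.1 T-type calcium channel of the sinus node, was lower in passaged than in static cells on Day 16. On Day 12 it was at 1.67 and 2.29 FPKM in NP-IWP2, 0.69 and 0.21 in P-DF, and 5.16 and 0.95 in P-IWP2. The Day 16 levels were 3.75 and 6.12 FPKM in NP-IWP2, 0.67 and 0.57 in P-DF, and 0.24 and 0.10 in P-IWP2. The 3 groups of Day 16 did not overlap, and static libraries of either day were above all passaged ones except replicate 5. On Day 16 CACNA1G was lower than in NP-IWP2, with log2 differences of -2.75 ± 0.72 in P-DF (adjusted p 0.0337, and 0.000105 without replicate 5) and -4.61 ± 0.81 in P-IWP2 (0.00667, and 4.95e-06 without replicate 5). On Day 12 the P-DF difference was -2.04 ± 0.73 (adjusted p 0.148), and -2.06 ± 0.40 without replicate 5 (0.0024). The P-IWP2 difference of Day 12 was 0.54 ± 0.67 with all libraries (adjusted p 0.874), -0.97 ± 0.47 without replicate 5 (0.2) and 1.24 ± 0.40 without replicate 6 (0.0535). Between the days CACNA1G was 1.42 ± 0.68 higher on Day 16 in static cells (adjusted p 0.287, and 0.0142 without replicate 5), differed by 0.72 ± 0.73 in P-DF (0.551), and fell by 3.72 ± 0.79 in P-IWP2 (0.0111), or by 2.22 ± 0.54 without replicate 5 (0.00961). The interaction for P-IWP2 was -5.14 ± 1.04 (adjusted p 0.0459), and without replicate 5 it was -3.64 ± 0.64 (0.00356). This call was lost without any 1 of the 4 static libraries or of the Day 16 P-IWP2 libraries (0.0889 to 0.222). The P-DF call of Day 16 was lost without any 1 of its 4 libraries (0.0755 to 0.205), and the P-IWP2 calls of Day 16 and over time were lost without Day 16 P-IWP2 replicate 6 (-4.16 and -3.27, 0.0705 and 0.104).

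The share of CACNA1G among the T-type genes moved with its level. It made up 38.2% and 44.9% of the summed FPKM of CACNA1G, CACNA1H and CACNA1I in the static libraries of Day 16 and 1.46% to 6.18% in the passaged ones. CACNA1H, the Cav3.2 channel, held most of the rest, at 6.04 and 7.45 FPKM in static and 6.74 to 10.2 FPKM in passaged libraries of Day 16. The CACNA1H difference did not pass the test in P-DF (0.77 ± 0.26, adjusted p 0.0787) or P-IWP2 (0.55 ± 0.26, 0.173) with all libraries, and passed it in both without replicate 5 (0.000901 and 0.00751).

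CACNA1D, which encodes the Cav1.3 L-type calcium channel needed for sinus node pacemaking, fell over time in all 3 treatments and was lower in both passaged groups than in static cells on Day 16. On Day 12 it was at 7.70 and 7.63 FPKM in NP-IWP2, 5.84 and 4.47 in P-DF, and 9.69 and 5.85 in P-IWP2. On Day 16 it was at 2.77 and 3.77 FPKM in NP-IWP2, 0.86 and 0.84 in P-DF, and 0.64 and 0.38 in P-IWP2. All Day 16 libraries lay below all Day 12 libraries, and the 3 groups of Day 16 did not overlap. The Day 12 difference from static cells was -0.48 ± 0.23 in P-DF (adjusted p 0.261, and 0.0528 without replicate 5). On Day 16 CACNA1D was lower than in static cells, with log2 differences of -1.70 ± 0.24 in P-DF (adjusted p 0.00287) and -2.40 ± 0.25 in P-IWP2 (0.0006), and both calls were kept in all 10 alternatives each (1.23e-05 and 9.16e-07 without replicate 5). From Day 12 to Day 16 it fell by 1.12 ± 0.23 in static cells (adjusted p 0.0477). The difference in passaged cells was -2.34 ± 0.25 for P-DF (0.000912) and -3.50 ± 0.26 for P-IWP2 (0.000323). Without replicate 5 the adjusted p over time were 0.000761 (static), 1.79e-06 (P-DF) and 1e-06 (P-IWP2). The static call over time was lost without any 1 of its 4 libraries (0.155 to 0.367) and when libraries were scaled to total counts (-1.23, 0.0673), and the P-DF call was kept in all 11 alternatives. The interaction was -2.38 ± 0.34 for P-IWP2 (adjusted p 0.015), which was -2.10 ± 0.27 without replicate 5 (0.000528), a call lost without replicate 1 (0.0957) or 2 (0.0936) of the Day 12 static libraries, replicate 2 of the Day 16 static libraries (0.0791) or Day 16 P-IWP2 replicate 6 (0.061). For P-DF it was -1.22 ± 0.33 (adjusted p 0.164), and without replicate 5 it was -1.21 ± 0.25 and passed the test (0.00926).

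Among the L-type genes the share of CACNA1D was smaller, and that of CACNA1C, the Cav1.2 channel of the working myocardium, larger in passaged cells other than replicate 5. CACNA1D was 52.1% and 55.2% of the summed FPKM of CACNA1C, CACNA1D and CACNA1S in the static libraries of Day 12, 78.6% in replicate 5, and 28.5% to 37.8% in the other passaged libraries of that day. On Day 16 it was 28.2% and 34.6% in static and 3.1% to 5.69% in passaged libraries. CACNA1C was at 7.02 and 7.11 FPKM in the static and at 11.1 to 16.1 FPKM in the passaged libraries of Day 16, above the static libraries in all 4. That difference was 1.30 ± 0.49 in P-DF (adjusted p 0.103) and 1.04 ± 0.49 in P-IWP2 (0.168) with all libraries, and passed the test without replicate 5 (2.56e-06 and 1.82e-05).

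**Figure D3:**
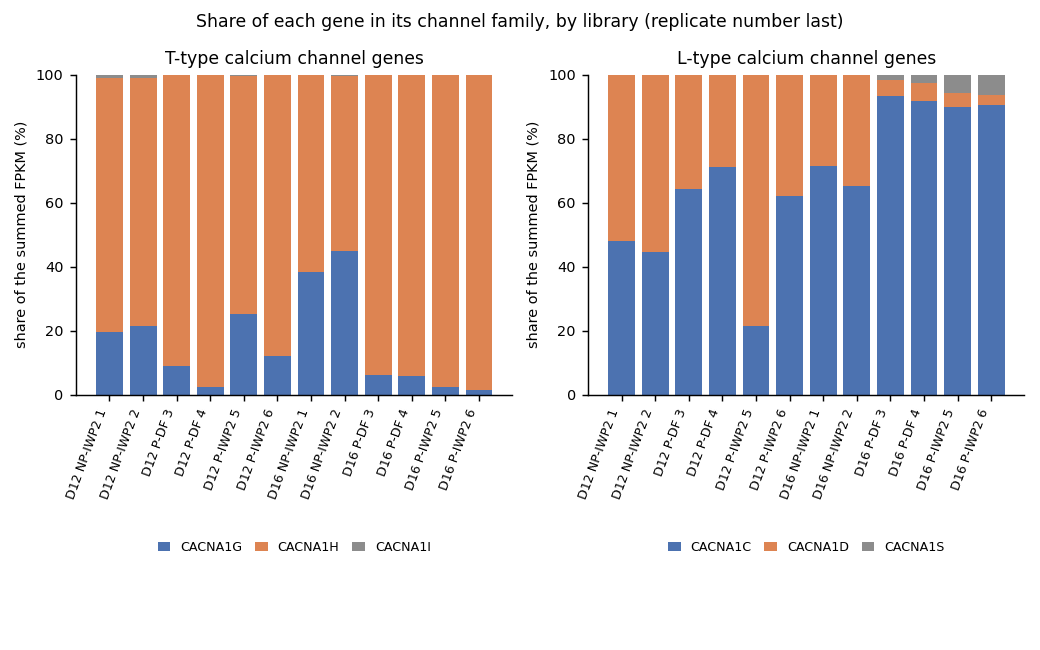
Share (%) of each gene in the summed FPKM of the T-type and of the L-type calcium channel genes in each of the 12 libraries, from 0 to 100%. CACNA1G is largest in the static libraries of Day 16, and CACNA1D is 5.69% or less of the L-type sum in the passaged libraries of Day 16.

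Set against static cells on Day 16, both passaged groups had less of the sinus node channels CACNA1D and CACNA1G, P-IWP2 had less HCN4 and P-DF had more HCN2. In P-DF, 2 of the 7 genes were lower (CACNA1D and CACNA1G) and 1 was higher (HCN2), where 9.86% of all 19505 genes tested were called lower and 5.39% higher. In P-IWP2, 3 were lower (CACNA1D, CACNA1G and HCN4) and none higher, where 9.95% of all genes were lower and 7.15% higher. Without replicate 5, 4 genes were lower (HCN4, ISL1, CACNA1G and CACNA1D) and HCN2 was higher in each comparison, with 18.1% and 18.5% of all genes called lower and 14.4% and 16.3% higher. SHOX2 was called lower as well, but is left out of this and the following counts, since it passed the filter only through the libraries where it is high. Over the 6 other genes the median log2 difference from static cells came to -0.93 (P-DF) and -1.07 (P-IWP2), against -0.02 and -0.03 over all genes tested. The comparisons share the NP-IWP2 libraries. In bulk RNA, fewer cells of a type and less RNA per cell cannot be told apart, and markers of other cell types moved in the same direction as SHOX2, ISL1 and CACNA1G. The summed FPKM of 8 fibroblast markers was 1378 and 1404 in static and 28.4 to 44.03 in passaged libraries of Day 16 (7 of 8 lower in P-DF, 8 of 8 in P-IWP2). That of 7 epicardial markers was 41.3 and 54.9 against 0.4 to 0.81 (5 of 6 tested lower in each), with TCF21 at 0 in 3 of the 4 passaged libraries. That of 8 hepatic markers was 692 and 841 against 14.1 to 20.1 (8 of 8 lower in each), with HNF4A at 0 in all 4 passaged libraries. The 7 endothelial markers summed to 14.6 and 14.9 against 1.52 to 2.37 (2 of 7 lower in P-DF, 1 of 7 in P-IWP2), and the 8 neural markers to 22.5 and 24.7 against 1.19 to 1.64 (2 of 4 tested lower in each), with STMN2 making up most of the static level. The summed 8 cardiomyocyte markers went the other way, from 3203 and 3911 FPKM in static to 6489 to 9470 in passaged libraries. Their part in the differences was not tested.

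On Day 12 the test was passed by none of the 7 genes in P-DF against NP-IWP2 (4.01% of all genes) or in P-IWP2 against NP-IWP2 (1.66%) with all libraries by edgeR. SHOX2 aside, 2 had an unadjusted p under 0.05 (edgeR) in P-DF (ISL1 and CACNA1G), where 21.7% of all genes had one. None had one in P-IWP2, where 11.5% of all genes did. DESeq2 called the same 2 in P-DF, where it called 8.22% of all genes, and 0 in P-IWP2, where it called 3.26%. Without replicate 5, P-DF had ISL1 and CACNA1G lower and TBX3 higher, with 13.6% of all genes lower and 8.25% higher, and P-IWP2 had ISL1 lower and TBX3 higher, with 9.57% lower and 5.45% higher. Without replicate 6 the P-IWP2 comparison turned, with HCN4 (0.80 ± 0.16, adjusted p 0.00422) and ISL1 higher (beside SHOX2) and HCN2 (-1.72 ± 0.49, 0.0314) and TBX3 lower, where 5.56% of all genes were higher and 8.72% lower. The summed fibroblast markers of that day were 801 and 813 FPKM in static, 34.9 to 48.5 in passaged libraries other than replicate 5 and 767 in replicate 5, the same grouping as SHOX2, ISL1 and CACNA1G, and their part was not tested.

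With all libraries no difference between the passaged groups passed the test by edgeR, and on Day 12 the size of the differences depended on the P-IWP2 library. In P-IWP2 against P-DF, none of the 7 on Day 12 (0% of all genes) and none of the 6 that could be compared on Day 16 (0%) passed the test by edgeR. SHOX2 aside, 2 had an unadjusted p under 0.05 (edgeR) on Day 12 (ISL1 and CACNA1G) and 2 on Day 16 (CACNA1G and CACNA1D). Of all genes, 10.6% and 8.03% had one. DESeq2 called 1 (CACNA1G) and 0, where it called 0.887% and 0.574%. Leaving out Day 12 P-IWP2 replicate 6 leaves replicate 5 alone in its group. The Day 12 log2 differences were then 0.78 for HCN4, 2.26 for ISL1, 3.30 for CACNA1G and 0.68 for CACNA1D. They were -2.22 for HCN2 and -1.68 for TBX3. SHOX2 had no count in P-DF, so its fold is not defined by the fit. Without replicate 5 none of the 7 was called on Day 12 (0% of all genes). On Day 16 the differences were -1.86 ± 0.79 for CACNA1G, -0.70 ± 0.25 for CACNA1D, -0.39 ± 0.55 for HCN2, -0.21 ± 0.24 for HCN4, -0.08 ± 0.52 for ISL1 and 0.13 ± 0.42 for TBX3. In FPKM, scaled by library totals, the libraries of these groups did not overlap, with small gaps for TBX3, ISL1 and HCN2. Whether the gaps hold under the TMM scaling of the tests was not examined. The share of all genes that separate in this way was not computed, so this is not a result about these genes. Without replicate 5 none of the 6 was called either, where 2.49% of all genes were, with an adjusted p of 0.0642 for CACNA1G and 0.0907 for CACNA1D.

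With all libraries most calls over time were made in passaged cells, whereas without replicate 5 static cells had calls for more genes than P-DF or P-IWP2. Day 16 was lower than Day 12 for HCN4, TBX3 and CACNA1D in P-DF, 3 of 6 genes that could be compared, where 6.81% of all genes were lower, and the same 3 were lower without replicate 5 (14.1%). In P-IWP2, 5 of the 6 genes other than SHOX2 were lower (HCN4, TBX3, ISL1, CACNA1G and CACNA1D) where 14.1% of all genes were, and without replicate 5 HCN4, TBX3, CACNA1G and CACNA1D were lower where 11.3% were. In NP-IWP2 CACNA1D alone was lower with all libraries (1.1% of all genes), and without replicate 5 CACNA1D, TBX3, ISL1 and HCN2 were lower (7.91%) and CACNA1G higher (9.23%). The interaction of passaging and day was called for CACNA1G and CACNA1D in P-IWP2 (1.06% of all genes lower) and for none of the 6 genes in P-DF (0.482% in either direction) by edgeR, where CACNA1D had an unadjusted p under 0.05 (12.4% of all genes) and was called by DESeq2 (2.57%). Without replicate 5, HCN4 joined them in P-IWP2 (4.03% lower), and in P-DF HCN2 was higher (3.57%) and CACNA1D lower (4.05%). Scaling to total counts in place of TMM moved the median of all genes by -0.25 and -0.31 in P-DF and P-IWP2 against NP-IWP2 on Day 16, by -0.11, -0.28 and -0.49 over time in NP-IWP2, P-DF and P-IWP2, and by 0.11 in P-IWP2 against P-DF on Day 12. Under that scaling the fall of TBX3 over time in static cells passed the test (-2.05, adjusted p 0.0298), that of CACNA1D did not, and the other calls of the 7 genes stood.

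Ranked by group mean over the 6 groups, the genes ordered the days and treatments differently. HCN4 and CACNA1D ran from the 3 Day 12 groups down to static, P-DF and P-IWP2 cells of Day 16, and each step within Day 16 separated the libraries, whereas the Day 12 groups overlapped for HCN4 and P-IWP2 overlapped NP-IWP2 for CACNA1D. TBX3 put all Day 12 groups first, with P-DF above NP-IWP2 without overlap. ISL1 and CACNA1G had the static groups and the Day 12 P-IWP2 group on top, where the static groups of the 2 days did not overlap each other and each overlapped the wide Day 12 P-IWP2 group, and the remaining passaged groups had lower means. SHOX2 had Day 12 P-IWP2 and Day 16 NP-IWP2 on top with overlap, then Day 12 NP-IWP2, and the rest at or near 0. No neighbours in the order of HCN2 were separate.

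**Figure D4:**
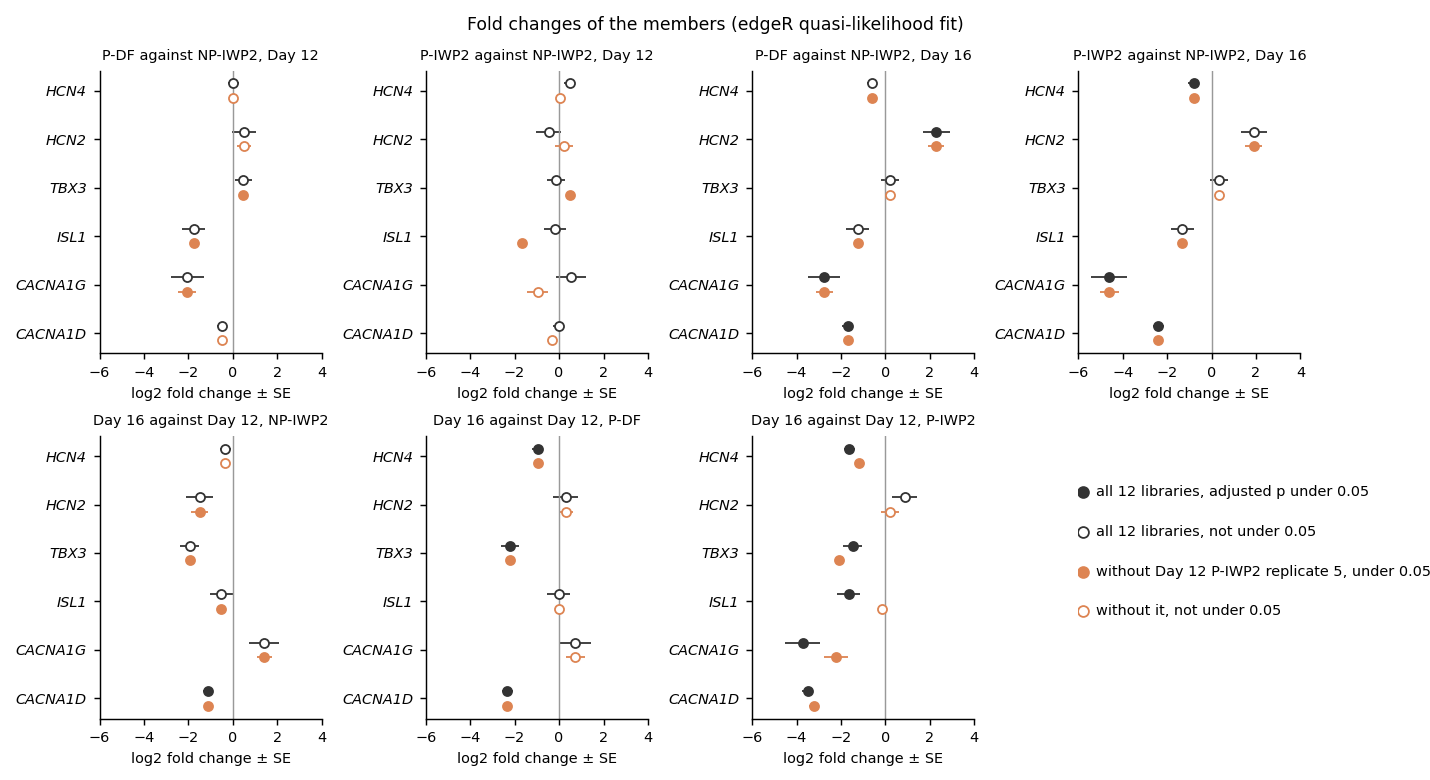
Log2 fold changes ± SE of 6 of the 7 genes (edgeR) for passaged against static cells, by day, and for Day 16 against Day 12 by treatment, with all 12 libraries (black) and without Day 12 P-IWP2 replicate 5 (orange), filled where the adjusted p was under 0.05. SHOX2 is left out because its fold against groups at or near 0 counts is not defined by the fit, and CACNA1D on Day 16 is at -1.70 and -2.40 with either set of libraries.

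Other genes of the pacemaker programme were divided. Of 18 sinus node factors and markers, none was higher and 3 were lower in P-DF on Day 16 (BMP4, SMOC2 and TBX18) and 5 in P-IWP2 (the same 3, RGS6 and TBX5), with a median log2 difference of -0.19 and -0.44. Of all 19505 genes tested, 1051 were higher and 1924 lower in P-DF, and 1395 were higher and 1941 lower in P-IWP2. TBX18, which specifies the sinus horn, was at 28.7 and 44.8 FPKM in static and at 0.01 to 0.05 FPKM in the passaged libraries of Day 16, and TBX5, a T-box factor upstream of SHOX2, was at 24.96 and 27.7 FPKM in static, 20.2 and 17.7 in P-DF and 9.45 and 5.87 in P-IWP2. BMP4, a growth factor of the early heart fields, was at 23.0 and 23.5 FPKM in static and 0.59 to 1.2 in passaged libraries. TBX2, a repressor related to TBX3, did not pass the test (-0.08 ± 0.41 and -0.31 ± 0.41, adjusted p 0.913 and 0.631). Of 18 further HCN and calcium channel subunit genes, 15 could be tested, and in each comparison 4 were higher (CACNA1B, CACNA1S, CACNA2D1 and CACNB1) and 2 lower (CACNA1A and CACNB4), with medians of 0.11 and 0.15. CACNA2D1, the accessory subunit of the cardiac L-type channel, was 0.57 ± 0.11 higher in P-DF (adjusted p 0.00965) and 0.39 ± 0.11 higher in P-IWP2 (0.0362).

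Genes of the calcium clock, of the working myocardium and of the cardiomyocyte list were mostly higher in passaged cells where they passed the test. Over all genes tested, more were lower than higher in each comparison, in the numbers given above. Of 11 calcium clock genes, 8 were higher in P-DF on Day 16 (ADCY5, ATP2A2, CAMK2D, CASQ2, PLN, PRKACA, RYR2 and SLC8A1) and 5 in P-IWP2 (ATP2A2, CAMK2D, CASQ2, PLN and PRKACA), and ADCY1 was lower in each. PLN, the brake of the calcium pump of the sarcoplasmic reticulum, was at 177 and 135 FPKM in static, 905 and 1038 in P-DF and 822 and 605 in P-IWP2. The pump itself, ATP2A2, was 0.68 ± 0.15 higher in P-DF (adjusted p 0.018) and 0.62 ± 0.15 higher in P-IWP2 (0.0238). Of 13 working myocardium genes, 12 could be tested, and HOPX, MYL2 and TNNI3 were higher in each comparison, NPPA in P-IWP2, and GJA1 and GJA5 lower in P-IWP2. MYL2, the ventricular light chain, was at 38.7 and 4.52 FPKM in static and at 1121 to 1662 FPKM in passaged libraries, so that its groups stood far apart while the static libraries differed among themselves. Of the 8 cardiomyocyte genes, ACTN2, MYBPC3, MYL7 and TTN were higher and MYH6 lower in each comparison. The medians were 0.97 and 0.62 for the calcium clock and 0.76 and 1.76 for the working myocardium, against -0.02 and -0.03 over all genes. Without replicate 5 the test was passed by more genes of each list, and by more of all genes tested, with the shares given above for Day 16. In P-DF and P-IWP2 these were 3 higher and 7 lower, and 4 higher and 10 lower, of the sinus node list, and 7 higher and 3 lower in each of the channel subunits. For the calcium clock they were 8 higher and 2 lower, and 7 higher and 1 lower, for the working myocardium 9 higher and 1 lower, and 8 higher and 2 lower, and for the cardiomyocyte list 7 higher and 1 lower in each.

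**Figure D5:**
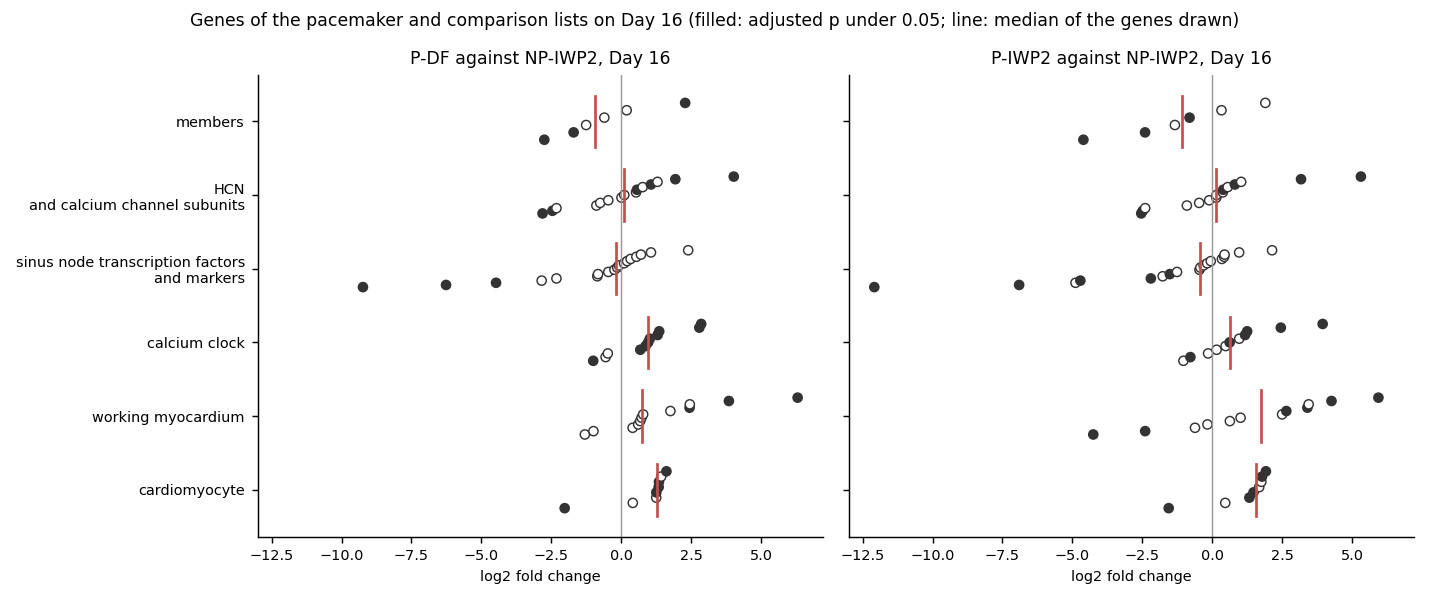
Log2 fold changes of single genes on Day 16 in P-DF (left) and P-IWP2 (right) against NP-IWP2, by list, filled where the adjusted p was under 0.05 with all 12 libraries, with a red line at the median of the genes drawn. CACNA1D and CACNA1G lie left of 0 in both panels, most calcium clock and cardiomyocyte genes lie right of 0, and SHOX2 is not drawn.

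The 7 genes fell into patterns across the 12 libraries, described here on log2 CPM with the libraries shared by all genes. HCN4 and CACNA1D were most alike (Pearson r 0.93, Spearman rho 0.94, and r 0.96 without replicate 5). SHOX2 and ISL1 followed (0.92, 0.70 and 0.88), and HCN2 ran against SHOX2 (-0.86, -0.66 and -0.82). TBX3 and ISL1 were unrelated in this sense (-0.02, -0.01 and 0.05). The 3 genes of the table most like each member were NKD1, ZMIZ1 and USP54 for HCN4 (r 0.98, 0.98 and 0.97), KDM7A-DT, AMIGO1 and MTFR1L for HCN2 (0.98, 0.97 and 0.96), and NPHS1, NOL4L and ITGB8 for SHOX2 (0.99, 0.98 and 0.98). They were NFYB, CPM and TBKBP1 for TBX3 (0.98, 0.97 and 0.96), ST8SIA4, RASAL1 and C6orf141 for ISL1 (0.998, 0.99 and 0.99), ABCA8, PODN and PXYLP1 for CACNA1G (0.98, 0.98 and 0.97), and SMO, ZNF251 and CCNL2 for CACNA1D (0.99, 0.98 and 0.98). Spearman rho was 0.93, 0.85 and 0.93 for the 3 genes of ISL1. These genes were picked for the highest r among all genes that passed the filter, over 12 libraries in 6 groups, so the values are high by choice.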

How the data were processed

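RNA of 12 libraries of H1 cells was sequenced in bulk, and the read type was not given in the sources used here. According to the submitters' processing notes, reads were trimmed with Cutadapt 1.9.1, aligned with HISAT2 2.0.1 to hg38 and counted per gene with HTSeq 0.6.1. The table deposited by the authors holds unnormalized read counts and FPKM, and the deposited FPKM equal the count per kilobase of exon scaled by the library total (within 0.01 for 100% of values). Nothing was pooled. Counts were tested with edgeR 4.0.16 (R 4.3.3, TMM, filterByExpr, quasi-likelihood test) in 1 model of 6 groups, and 19505 genes were tested with Benjamini-Hochberg adjustment and a threshold of 0.05. The test was checked on simulated data. Log2 CPM used a prior count of 2. Groups came from the sample titles. The 7 genes and the lists of other genes were chosen with earlier results of these data known. Named genes are the 7, genes of the lists (with all list genes called in a comparison named) and the 3 genes with the highest Pearson r to each of the 7. Alternatives were other scalings (RLE, total counts), no filter, DESeq2 1.42.0, only the groups compared, the replicate block and leaving out each library in turn. Replicate numbers were checked for pairing through the correlation of deviations between days, which was 0.204 for NP-IWP2, -0.00178 for P-DF and -0.0534 for P-IWP2. The numbers were not taken as pairs in the main model. With 2 libraries a group, this check cannot exclude that libraries of the same number shared an origin. A group limit of 3 counts and exact intervals cover counting error only. Promoters and their positions are from RefSeq (GRCh38.p14), and 5 of 7 genes matched. Gene positions are those of the table and equal GENCODE v44 for all 7. Some genes of these lists are not reported here.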

Additional observations from a re-analysis of the deposited data

Results flagged for a closer look

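The difference between P-IWP2 and static cells depended on the day for 2 of the 6 genes with a defined fold (SHOX2 had none), by the test of the interaction itself. Both were called lower, where 1.06% of all 19505 genes tested were. The interaction was -5.14 on the log2 scale for CACNA1G (adjusted p 0.0459) and -2.38 for CACNA1D (adjusted p 0.015, edgeR). Without Day 12 P-IWP2 replicate 5 these were -3.64 (adjusted p 0.00356) and -2.10 (0.000528). The CACNA1G call was lost without any 1 of the 4 static or the 2 Day 16 P-IWP2 libraries (adjusted p 0.0889 to 0.222), the CACNA1D call without any 1 of 4 libraries (Day 12 static replicates 1 and 2, Day 16 static replicate 2 and Day 16 P-IWP2 replicate 6, 0.061 to 0.0957), and both with only the groups compared (0.122 and 0.0668). CACNA1G was also higher on Day 16 than on Day 12 in each NP-IWP2 library (log2 difference 1.42) and lower on Day 16 in each P-IWP2 library (-3.72), and the difference between these changes is the interaction given first. No group had enough libraries for a check of single outlying values.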

How the results depend on the processing

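The falls of CACNA1D on Day 16 in either passaged group and over time in P-DF kept their direction and their side of the threshold in all alternatives. Apart from leaving out a library, 322 member values kept direction and side of the threshold, 58 came to pass it, 10 ceased to and 5 turned. On leaving out a library the numbers were 290, 35, 44 and 15. Under total counts, HCN4 in P-DF on Day 12 was -0.071, CACNA1D in P-IWP2 on Day 12 was 0.019 and TBX3 in P-DF on Day 16 was -0.034. With only the groups compared, CACNA1D in P-IWP2 on Day 12 was 0.0012, and with no filter ISL1 over time in P-DF was 0.0066. Leaving out a library gave ranges that crossed 0 for HCN4 in P-DF on Day 12 (-0.20 to 0.19), and for P-IWP2 against NP-IWP2 on Day 12 in HCN2 (-1.72 to 0.21), SHOX2 (-8.85 to 5.60), TBX3 (-1.21 to 0.48), ISL1 (-1.69 to 0.50), CACNA1G (-0.97 to 1.24) and CACNA1D (-0.30 to 0.19). The same held for TBX3 in P-IWP2 against P-DF on Day 12 (-1.68 to 0.012), ISL1 over time in P-DF (-0.096 to 0.063), and the interactions of CACNA1G in P-DF (-1.36 to 0.44) and of TBX3 (-0.15 to 1.54) and ISL1 (-1.83 to 0.36) in P-IWP2.

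Counts of all genes called moved by over 1.5 times as follows. For P-DF on Day 12 (783 genes) they were 3107 with no filter, 1603 by DESeq2 and 5361 with only the groups compared, and for P-IWP2 on Day 12 (323) they were 1527, 636 and 0. For P-IWP2 against P-DF the Day 12 count of 0 became 1687 with no filter and 173 by DESeq2, and the Day 16 count of 0 became 645, 112 and, with only the groups compared, 253. On Day 16 P-DF (2975) had 4671 with no filter and 6927 with only the groups compared, and P-IWP2 (3336) had 5127 with the latter. Over time NP-IWP2 (386) had 2045 with no filter, 1093 by DESeq2 and 5124 with only the groups compared, P-DF (2654) had 6274 and P-IWP2 (5270) had 0 with the latter. The interaction counts were 1124, 502 and 2380 for P-DF (94), and 2732, 1425 and 37 for P-IWP2 (358), which had 550 under total counts. With only the groups compared, the P-IWP2 calls over time of HCN4, TBX3, ISL1, CACNA1G and CACNA1D and both P-IWP2 interaction calls were lost (adjusted p 0.0668 to 0.254). These models held fewer libraries, Day 12 P-IWP2 replicate 5 among them. Leaving out a library gave 83 to 4485 genes (P-DF, Day 12), 58 to 3082 (P-IWP2, Day 12), 0 to 6088 (P-IWP2 against P-DF, Day 12), 542 to 6653 (P-DF, Day 16), 878 to 7140 (P-IWP2, Day 16), 0 to 510 (P-IWP2 against P-DF, Day 16), 2 to 3517 (time, NP-IWP2), 458 to 5984 (time, P-DF), 1211 to 9776 (time, P-IWP2), 0 to 1564 (interaction, P-DF) and 4 to 6109 (interaction, P-IWP2), where a group left with 1 library was assumed to vary like the others. What moved these counts and calls was not tested. The share of higher among called genes fell under total counts from 35.3% to 16.3% (P-DF, Day 16), 41.8% to 17.6% (P-IWP2, Day 16), 44.3% to 32.0% (time, NP-IWP2), 49.9% to 21.0% (time, P-DF), 47.9% to 14.4% (time, P-IWP2), 36.2% to 21.0% (interaction, P-DF) and 42.2% to 21.3% (interaction, P-IWP2).

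The replicate block could be used over the days only. It gave 154 genes over time in NP-IWP2 and 12 for the P-DF interaction, let SHOX2 over time in NP-IWP2 pass the test (adjusted p 0.0431), and lost HCN4 over time in P-DF (0.0599) and ISL1 over time in P-IWP2 (0.117). With 2 libraries a group, differences of SHOX2 between groups of 2 or fewer counts could not be resolved.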
